A study of Mus musculus with 6 samples.

Results

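Adrb1, Adrb3, Adra1a, Adra2a, Gnas, Adcy3, Prkaca, Prkar2b and Pde4d are genes of the path by which noradrenaline raises cyclic AMP in brown fat. They were taken by symbol from a table of 19241 genes, and each of the 9 symbols had 1 row. The RNA came from total interscapular brown adipose tissue (the depot) of mice at the newborn stage and was sequenced in bulk, with 3 libraries of the genotype Fstl1-floxed, titled WT, and 3 of the genotype Myf5-Fstl1 KO. The KO mice lack Fstl1, a secreted glycoprotein, in cells descended from Myf5-expressing precursors. The controls carry the floxed gene as well. The labels give no strain, sex, litter or Cre allele, and do not say whether a library is 1 animal. The comparison asks how RNA levels in the depot differ when the Myf5 lineage, which gives rise to skeletal muscle as well as to brown fat, lacks Fstl1.

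Sympathetic nerves release noradrenaline onto brown adipocytes. Beta-adrenergic receptors couple through the stimulatory G protein Gs to adenylyl cyclase, which makes cyclic AMP. Cyclic AMP releases the catalytic subunits of protein kinase A (PKA) from its regulatory subunits, and PKA drives lipolysis and the transcription of thermogenic genes. Alpha2 receptors act against the cyclase through inhibitory G proteins, alpha1 receptors signal through calcium, and phosphodiesterases break cyclic AMP down.

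The promoters of 4 genes are shown: the 3 members whose groups did not overlap, and the gene induced by cyclic AMP with the largest difference. Each window runs from 250 bases before to 50 bases after the annotated start, on the plus strand of RefSeq assembly GRCm38.p6, the assembly also known as mm10, which the submitters' processing notes name. Capitals mark TGACG or its reverse complement CGTCA, a part of the palindromic cyclic AMP response element TGACGTCA.
Adrb1 at chr19:56721867-56722166: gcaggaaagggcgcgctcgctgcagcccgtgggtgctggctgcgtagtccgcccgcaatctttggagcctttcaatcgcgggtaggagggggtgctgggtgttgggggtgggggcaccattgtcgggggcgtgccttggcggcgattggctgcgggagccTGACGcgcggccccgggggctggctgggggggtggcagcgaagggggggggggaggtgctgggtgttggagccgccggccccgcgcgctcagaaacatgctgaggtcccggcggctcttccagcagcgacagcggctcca
Prkaca at chr8:83972728-83973027: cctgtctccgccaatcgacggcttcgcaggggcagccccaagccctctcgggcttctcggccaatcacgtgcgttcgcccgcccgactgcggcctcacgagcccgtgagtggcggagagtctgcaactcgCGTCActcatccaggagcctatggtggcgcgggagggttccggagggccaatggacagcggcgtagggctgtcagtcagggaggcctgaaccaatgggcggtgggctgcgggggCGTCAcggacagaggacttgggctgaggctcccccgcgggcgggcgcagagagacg
Pde4d at chr13:108653927-108654226: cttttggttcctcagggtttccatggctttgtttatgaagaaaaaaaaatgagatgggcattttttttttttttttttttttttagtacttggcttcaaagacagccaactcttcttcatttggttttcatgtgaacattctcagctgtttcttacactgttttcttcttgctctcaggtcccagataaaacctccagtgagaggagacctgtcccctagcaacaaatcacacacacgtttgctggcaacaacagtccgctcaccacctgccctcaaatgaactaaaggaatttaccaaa
Nr4a3 at chr4:48045055-48045354: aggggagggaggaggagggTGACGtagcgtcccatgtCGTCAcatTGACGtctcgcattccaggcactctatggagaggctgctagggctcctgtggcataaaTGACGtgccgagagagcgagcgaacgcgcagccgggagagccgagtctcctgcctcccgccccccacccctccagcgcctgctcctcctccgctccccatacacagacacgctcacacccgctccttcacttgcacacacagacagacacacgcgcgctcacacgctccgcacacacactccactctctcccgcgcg

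None of the 4 windows held the full element, which is found in 1.79% of 32851 windows of 300 bases. The shorter motif, searched on both strands and counted also where it lies within the full one, is found in 20.8% of windows. The Adrb1 window held 1, with its first base 90 bases before the start. The Prkaca window held 2, at 120 and 6 bases before the start. The Nr4a3 window held 4, between 231 and 147 bases before the start, and the Pde4d window held 0. Of genes induced by cyclic AMP whose windows are not printed, Fos held 2, at 129 and 66 bases before the start. Each Per1 window held 1. Prkaca has 2 windows in the RefSeq table and the upstream one is shown; the other held 0. Pde4d is known to have several start sites, of which this window covers the one at the start of the annotated gene. A match describes the letters and shows no binding.

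The deposited values are FPKM, in which fragment numbers are divided by transcript length and library size, so levels can be set side by side between genes. FPKM summed to 486449 to 556968 per library, and steps between low values put the depth at about 14250000 to 15400000 reads. Fstl1 itself read 55.52, 130.04 and 54.37 FPKM in the WT libraries, against 7.93, 13.08 and 8.77 FPKM in the KO libraries. All 9 adipocyte markers were detected in each library, with Fabp4 at 14000 to 17389 FPKM and Adipoq at 889 to 1216 FPKM, but 1 of the 9 passed the test. Plin1, which coats lipid droplets, fell to 37.9% of its WT mean (log2 difference −1.36, limma adjusted p 0.0267), and passed in 9 of 15 alternatives and 2 of the 6 that leave out a library. Ucp1, whose product makes mitochondria release heat, was at 48.9% of its WT mean without overlap and did not pass (−1.08, limma adjusted p 0.0804), nor did Cebpa at 67.7% (−0.66, limma adjusted p 0.306). The other 6 adipocyte markers lay between −0.07 and 0.24 on the log2 scale. The 8 markers of skeletal muscle summed to 301 FPKM in KO replicate 1 and to 1205 to 1754 FPKM in the other 5 libraries. The 4 Y-linked genes checked were at 7.39 to 99.31 FPKM in the KO libraries and at most 0.23 FPKM in the WT libraries, while Xist was at 44.82 to 85.51 FPKM in WT and at most 0.92 FPKM in KO. Sex and genotype therefore cannot be told apart in any difference given here.

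Among the members in WT, Gnas was highest and Prkar2b and Prkaca followed. Adcy3 and Pde4d overlapped with each other at 27.69 to 31.26 FPKM, and so did Adrb1 and Adra1a at 6.04 to 15.48 FPKM. Adrb3 and then Adra2a were lowest. In KO, Pde4d overlapped with Prkaca and lay above each KO value of Adcy3, and Adrb1 overlapped with Adrb3. Of the 9 members 8 had a mean of at least 0.5 FPKM and were tested. 1 member passed an adjusted p of 0.05 in limma over 13331 genes, where 2.21% of all tested genes passed. The groups did not overlap in 3 members, Adrb1, Prkaca and Pde4d, where 24.9% of all tested genes showed no overlap. 3 of the 8 had an unadjusted p under 0.05 in limma, against 19.2% of all tested genes. The median log2 fold change of the 8 was −0.38, against 0.01 over all tested genes.

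**Figure D1:**
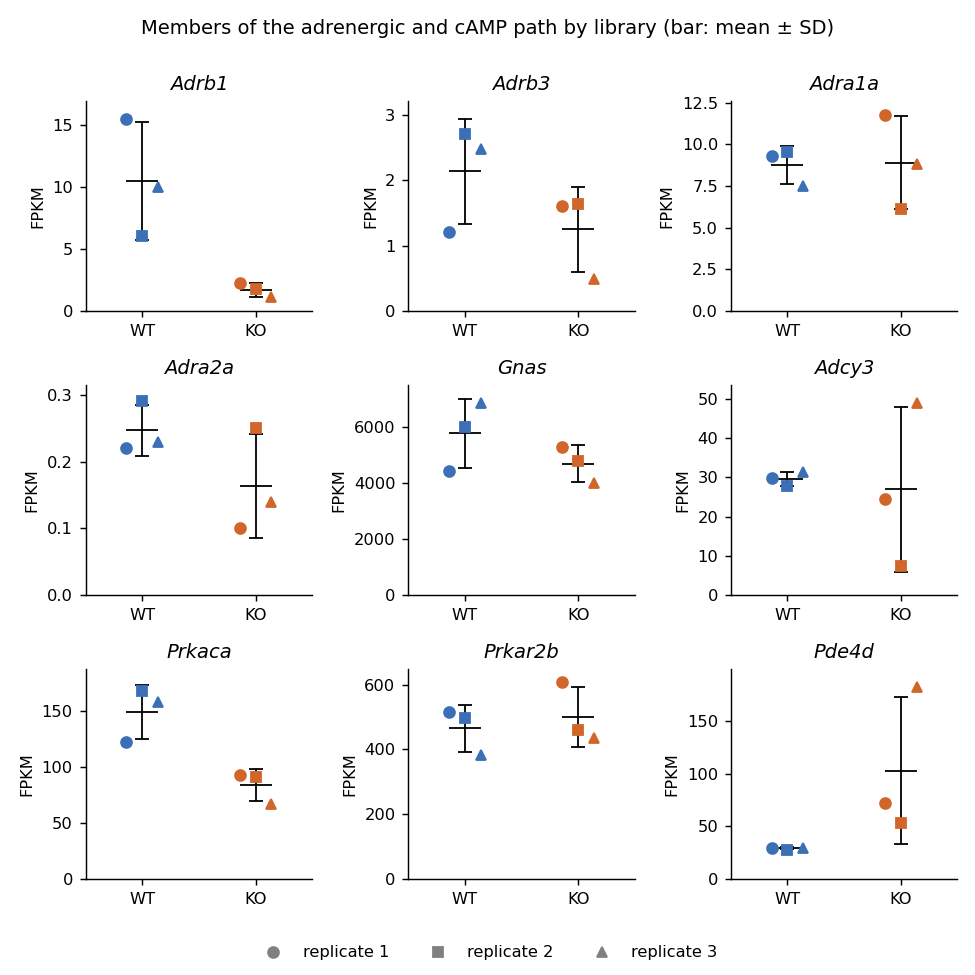
FPKM of the 9 members in each library, with WT in blue, KO in orange, a marker shape for each replicate number, and a bar for the mean ± SD. The KO points of Adrb1 and Prkaca lie below all WT points, those of Pde4d lie above them, and the KO points of Adcy3 spread from 7.29 to 48.92 FPKM around a tight WT group.

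Adrb1 (Entrez gene 11554, chr19:56722117-56725150, plus strand), which encodes the beta1-adrenergic receptor, fell in KO. WT replicates 1, 2 and 3 read 15.48, 6.04 and 9.99 FPKM, and the KO replicates in the same order read 2.26, 1.76 and 1.13 FPKM. Each KO library was below each WT library, and WT replicate 1 was the highest of the 6. KO averaged 1.72 ± 0.566 FPKM, which is 16.3% of the WT average of 10.5 ± 4.74 FPKM (SD, n = 3 each). The difference on the log2(FPKM + 1) scale was −2.02 (SE 0.30, limma adjusted p 0.0199). In bulk tissue, fewer cells of a type and less RNA per cell cannot be told apart. By the estimated depth, the values rest on about 50 to 669 reads per library. The adjusted p was 0.0802 without the filter on low values, 0.0997 with WT replicate 3 left out, and 0.0638 or 0.0513 with KO replicate 2 or 3 left out (limma), while the difference stayed between −2.49 and −1.72 in all 15 alternatives.

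Adrb3 (11556, chr8:27225776-27230845) encodes the beta3-adrenergic receptor, the form known chiefly from adipocytes. It read 1.21, 2.71 and 2.48 FPKM in WT replicates 1 to 3, while the KO replicates read 1.61, 1.64 and 0.49 FPKM. The groups overlapped, since WT replicate 1 was below 2 of the KO libraries. The log2 difference was −0.49 with a 95% interval of −1.11 to 0.13 (limma, adjusted p 0.369). The Adrb3 values rest on few reads, about 20 to 114 per library, and the SE of the difference was 0.28 (limma).

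Adrb1 ran at 12.8, 2.23 and 4.03 times Adrb3 in the WT libraries and at 1.40, 1.07 and 2.31 times in the KO libraries. The groups overlapped narrowly in this ratio, through WT replicate 2 and KO replicate 3 (difference in log2 ratio −1.68, exact permutation p = 0.2, two-sided; the smallest that 3 against 3 allows is 0.1).

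Of the alpha receptor members, Adra1a was tested and did not pass. Adra1a (11549, chr14:66635251-66771240), an alpha1 receptor gene, read 9.28, 9.51 and 7.48 FPKM in the WT libraries, against 11.74, 6.13 and 8.84 FPKM in the KO libraries. KO replicate 1 was above the WT range, KO replicate 2 below it and KO replicate 3 within it. The log2 difference was −0.01 with a 95% interval of −0.50 to 0.48 (limma, adjusted p 0.987). It supplied 72.4% to 91.8% of alpha receptor RNA in the 6 libraries. Adra2a (11551, chr19:54045259-54048982, plus strand), an alpha2 receptor gene, read 0.22, 0.29 and 0.23 FPKM in WT replicates 1 to 3, while the KO replicates read 0.10, 0.25 and 0.14 FPKM. These values rest on about 5 to 16 reads, were below the filter, and overlapped between the groups, so a difference was not detectable at this depth.

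Adra1d, another alpha1 receptor gene, had WT values of 1.51, 1.51 and 2.38 FPKM, while its KO values were 0.74, 0.74 and 0.72 FPKM. Its log2 difference of −0.68 did not pass (limma, adjusted p 0.0683), with no overlap between the groups. The 6 markers of smooth muscle and pericytes, cells of the vessel wall, summed to 108 to 137 FPKM in WT and 92.04 to 105 FPKM in KO. Of the 6, 0 passed in limma and 2 had an unadjusted p under 0.05, against 19.2% of all tested genes. The part of these markers in the Adra1d difference was not tested. Of the other adrenergic receptors, Adra1b, Adra2b and Adra2c were below the filter, with no library above 0.37 FPKM.

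Gnas (14683, chr2:174284320-174346744, plus strand), which encodes the Gs alpha subunit, was the most abundant member. It read 4454, 6026 and 6884 FPKM in the WT libraries, against 5300, 4804 and 3996 FPKM in the KO libraries. The groups overlapped, and the log2 difference was −0.29 with a 95% interval of −0.73 to 0.16 (limma, adjusted p 0.463). The row pools 11 transcripts of an imprinted locus that also makes other products and an antisense RNA, so it is not a measure of Gs alpha alone. Among 9 other G protein subunit genes 0 passed in limma. An unadjusted p under 0.05 was seen in 2, both lower, against 19.2% of all tested genes. The smallest p-values were those of Gna11 (log2 difference −0.37, limma adjusted p 0.218) and Gnb1 (−0.29, limma adjusted p 0.249).

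Adcy3 (104111, chr12:4133116-4213525, plus strand) encodes an adenylyl cyclase. Its WT values were 29.78, 27.69 and 31.26 FPKM, and its KO values were 24.56, 7.29 and 48.92 FPKM. KO replicate 2 was below and KO replicate 3 above all WT libraries, so that the highest KO value was 6.71 times the lowest, against 1.13 times in WT. The log2 difference of −0.48 had a 95% interval of −1.66 to 0.71 (limma, adjusted p 0.662), and it was 0.23 without KO replicate 2 and −1.07 without KO replicate 3. Adcy3 supplied 29.5% to 30.7% of cyclase RNA in WT and 27.4%, 12.0% and 52.0% in KO replicates 1, 2 and 3.

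Adcy6 was the larger cyclase transcript in WT, at 45.00 to 50.34 FPKM, and was at 46.25, 36.36 and 27.95 FPKM in KO (log2 difference −0.39, limma adjusted p 0.291). Adcy4 was at 8.10 to 12.74 FPKM in WT and 7.71 to 8.58 FPKM in KO (−0.29, limma adjusted p 0.402). Of the 9 other cyclase genes 6 were tested and 0 passed in limma. An unadjusted p under 0.05 was seen in 0 of the 6, against 19.2% of all tested genes. Summed cyclase RNA was 98.3 ± 5.13 FPKM in WT and 81.5 ± 18.1 FPKM in KO (SD, n = 3 each; exact permutation p = 0.2).

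Prkaca (18747, chr8:83972978-83996444, plus strand) encodes the main catalytic subunit of PKA. It read 121.95, 167.58 and 157.91 FPKM in WT replicates 1 to 3, while the KO replicates read 92.73, 91.13 and 67.28 FPKM. Each KO library was below each WT library, and the KO mean was 56.1% of that in WT. The log2 difference was −0.83 with a 95% interval of −1.24 to −0.41, and it missed the threshold (limma, adjusted p 0.0559). It passed in 4 of 15 alternatives, with an adjusted p in limma between 0.0415 and 0.224 over all of them. Prkacb, the other catalytic subunit gene listed, was at 17.81 to 26.92 FPKM in WT and 18.29 to 23.32 FPKM in KO (log2 difference −0.07, limma adjusted p 0.881). Prkaca thus supplied 81.9% to 89.9% of catalytic subunit RNA in WT and 78.6% to 80.3% in KO (exact permutation p = 0.1, the smallest possible; 0.30 adjusted over the 6 member shares tested).

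Prkar2b (19088, chr12:31958450-32061648, minus strand), which encodes the RII beta regulatory subunit known from adipose tissue and brain, was at 515.93, 496.07 and 382.37 FPKM in WT. It was at 607.07, 460.82 and 434.25 FPKM in KO, within or above the WT range. The log2 difference was 0.10 with a 95% interval of −0.31 to 0.52 (limma, adjusted p 0.806), and its sign turned without WT replicate 3 and without KO replicate 1. Set against the catalytic subunit, Prkar2b ran at 4.23, 2.96 and 2.42 times Prkaca in WT and at 6.55, 5.06 and 6.45 times in KO. The groups did not overlap in this ratio (difference in log2 ratio 0.94, exact permutation p = 0.1, the smallest possible, not adjusted). The ratio takes in the Prkaca values given above, so it is not separate evidence.

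Of 11 further PKA subunit, inhibitor and anchor genes tested, 0 passed in limma and 6 had an unadjusted p under 0.05, where 19.2% of all tested genes had one. The groups did not overlap in 6 of the 11, or 54.5%, against 24.9% of all tested genes, and the median log2 difference was −0.38, against 0.01. Akap12, an anchoring protein gene, had WT values of 42.11, 56.42 and 36.76 FPKM, while its KO values were 23.08, 28.69 and 17.18 FPKM (log2 difference −0.95, limma adjusted p 0.0626; passed in 4 of 15 alternatives). Akap1, whose product holds PKA at mitochondria, read 115.86, 100.60 and 89.38 FPKM in the WT libraries, against 77.40, 63.45 and 42.70 FPKM in the KO libraries (−0.76, limma adjusted p 0.107). In both genes the highest KO library was below the lowest WT library.

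Pde4d (238871, chr13:108654177-109955969, plus strand), a phosphodiesterase specific for cyclic AMP, read 29.91, 28.08 and 29.76 FPKM in WT replicates 1 to 3, while the KO replicates read 72.16, 53.17 and 182.20 FPKM. The WT libraries were nearly equal, each KO library was above them, and KO replicate 3 was the highest. The KO mean was 3.51 times the WT mean, with 29.2 ± 1.02 FPKM in WT and 102.5 ± 69.7 FPKM in KO (SD, n = 3 each). The log2 difference of 1.57 (95% interval 0.72 to 2.42) missed the threshold (limma, adjusted p 0.0672). It was smaller and passed without KO replicate 3 (1.06, limma adjusted p 0.0464), and it also passed with a filter at 5 FPKM (limma, adjusted p 0.0459).

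Pde4d supplied 62.6% to 76.8% of the RNA of the PDE4 family in WT and 81.9% to 92.6% in KO, without overlap (exact permutation p = 0.1, the smallest possible; 0.30 adjusted over the 6 member shares tested). The other PDE4 genes did not pass, with log2 differences of −0.01 for Pde4a, −0.14 for Pde4b and 0.00 for Pde4c (limma, adjusted p 0.994, 0.794 and 0.995). Within a library, Pde4d ran at 0.952 to 1.01 times Adcy3 in WT and at 2.94, 7.29 and 3.72 times in KO. The highest of these ratios lay in KO replicate 2, where Adcy3 was lowest (7.29 FPKM) and Pde4d lowest among the KO libraries (53.17 FPKM). Of 14 other phosphodiesterase genes 13 were tested, 0 passed in limma and 1 had an unadjusted p under 0.05, against 19.2% of all tested genes. Pde2a, which breaks down both cyclic AMP and cyclic GMP, was at 25.22 to 41.11 FPKM in WT and 45.85 to 47.94 FPKM in KO (log2 difference 0.54, limma adjusted p 0.158). Pde3b, through which insulin lowers cyclic AMP in fat cells, overlapped between the groups (0.52, limma adjusted p 0.332).

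**Figure D2:**
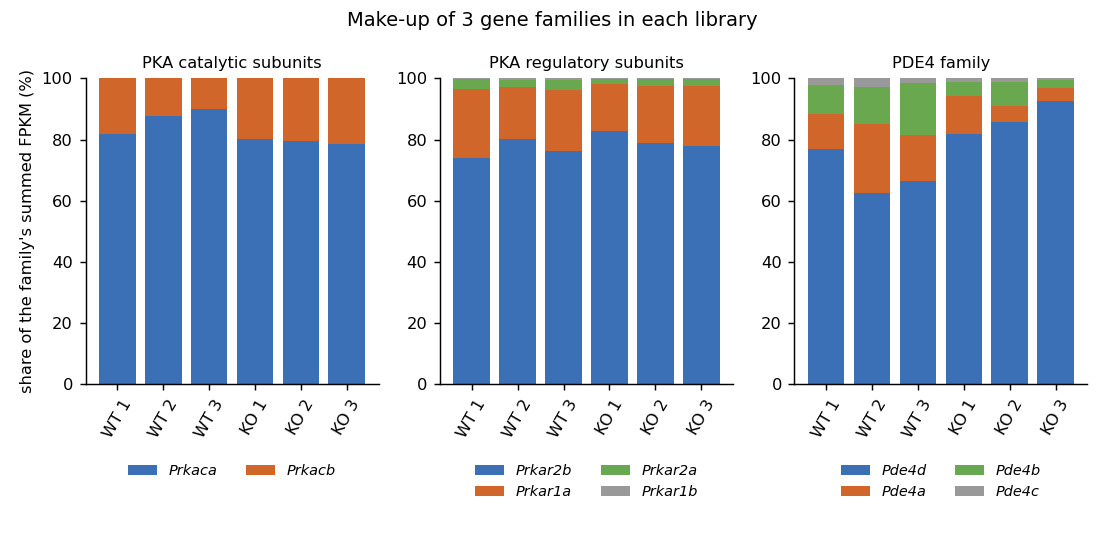
Stacked bars of each gene's share, in percent, of the summed FPKM of its family in each library, for 3 families. The Prkaca share is lower and the Pde4d share higher in each KO library than in the WT libraries, and Prkar2b stays the largest regulatory subunit in all 6 libraries at 74.0% to 82.9%.

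**Figure D3:**
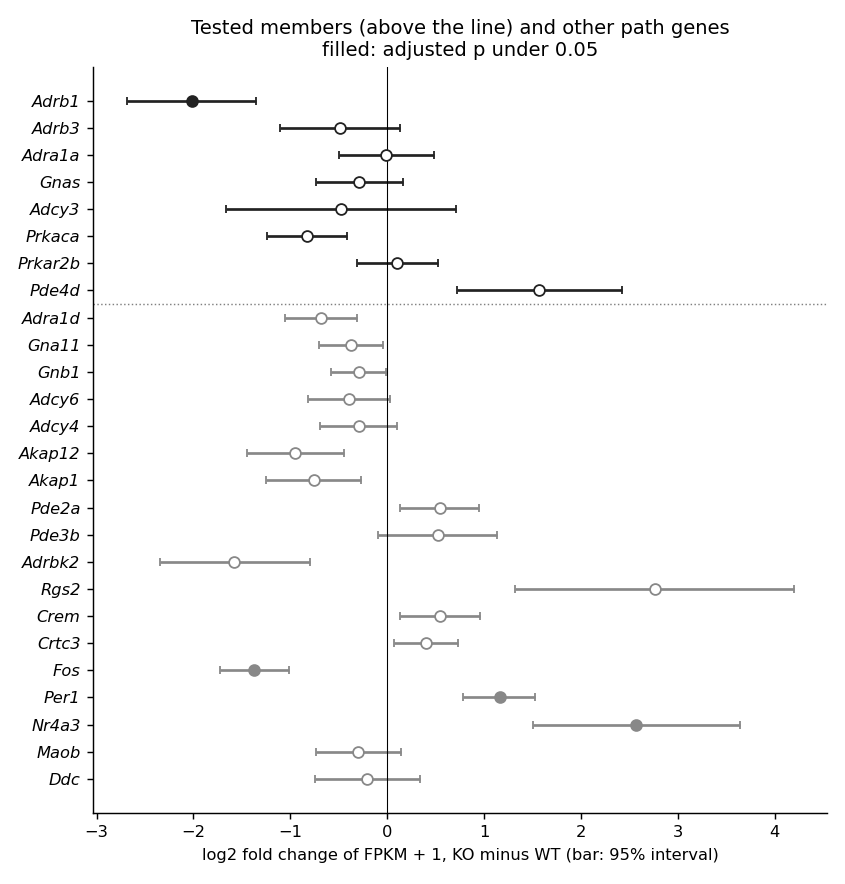
Log2 differences of FPKM + 1, KO minus WT, with 95% intervals from limma, for the 8 tested members above the dotted line and 18 other genes of the path below it. Filled points passed an adjusted p of 0.05: among members only Adrb1 (−2.02), and below the line Fos, Per1 and Nr4a3.

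Beyond the members, 85 genes of the path were counted and 74 were tested. 3 passed, 1 lower and 2 higher, which is 4.05% of them, against 2.21% of all tested genes. The groups did not overlap in 23, or 31.1%, near the 24.9% of all tested genes, and the median log2 difference was −0.09. All 3 that passed came from the list of genes induced by cyclic AMP. Members and lists alike were chosen with earlier results of these data known.

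The list of receptor kinases, arrestins and RGS genes held the 2 largest differences among the tested path genes that did not pass. Adrbk2, a kinase that phosphorylates active beta receptors, had WT values of 8.59, 20.93 and 15.01 FPKM, while its KO values were 6.72, 3.56 and 2.61 FPKM (log2 difference −1.58, limma adjusted p 0.0550). Rgs2, a regulator of G protein signalling, read 11.14, 10.90 and 9.75 FPKM in the WT libraries, against 24.60, 77.89 and 238.37 FPKM in the KO libraries (2.76, limma adjusted p 0.0625). The KO values of Rgs2 differed among themselves by far more than the WT values, with KO replicate 3 highest as in Pde4d. Among the 8 genes tested in this list 0 passed in limma, and these were the 2 with an unadjusted p under 0.05, against 19.2% of all tested genes. Adrbk2 passed in 3 of 15 alternatives, with the filter at 5 FPKM and without WT replicate 1 or KO replicate 1. Rgs2 passed in 2 of 15, with the filter at 5 FPKM and without KO replicate 1 (3.57, limma adjusted p 0.0138), while without KO replicate 3 it was 1.96 (limma, adjusted p 0.0804).

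Of 9 genes known to be induced by cyclic AMP, 3 passed, or 33.3%, against 2.21% of all tested genes. Of the 3, 1 was lower and 2 were higher, and so they did not move one way. Fos, an immediate-early transcription factor gene, fell from 9.04, 10.41 and 9.37 FPKM in WT to 2.71, 3.82 and 2.84 FPKM in KO (log2 difference −1.37, limma adjusted p 0.00841), and passed in all 15 alternatives. Nr4a3, an orphan nuclear receptor gene, rose from 7.24, 1.19 and 5.57 FPKM to 31.87, 17.90 and 39.33 FPKM (2.57, limma adjusted p 0.0369), and missed the threshold in 7 of 15 alternatives. Per1, a clock gene, rose from 19.43, 25.04 and 21.96 FPKM to 51.17, 42.41 and 58.61 FPKM (1.16, limma adjusted p 0.0183), and missed it in 4 of 15. Nr4a3 missed it with WT replicate 2 or 3 or any KO replicate left out, and Per1 with WT replicate 2 or 3 or KO replicate 1 left out. All 3 genes were free of overlap between the groups. The other 6 did not pass, and 7 of the 9 had an unadjusted p under 0.05 in limma, against 19.2% of all tested genes. Of these 6, the log2 differences were −0.67 for Sik1, −0.56 for Nr4a2, −0.39 for Dusp1, −0.23 for Dio2, 0.11 for Nr4a1 and 0.52 for Ppargc1a, with adjusted p in limma of 0.212 to 0.892. The groups did not overlap in Dusp1 among these 6.

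**Figure D4:**
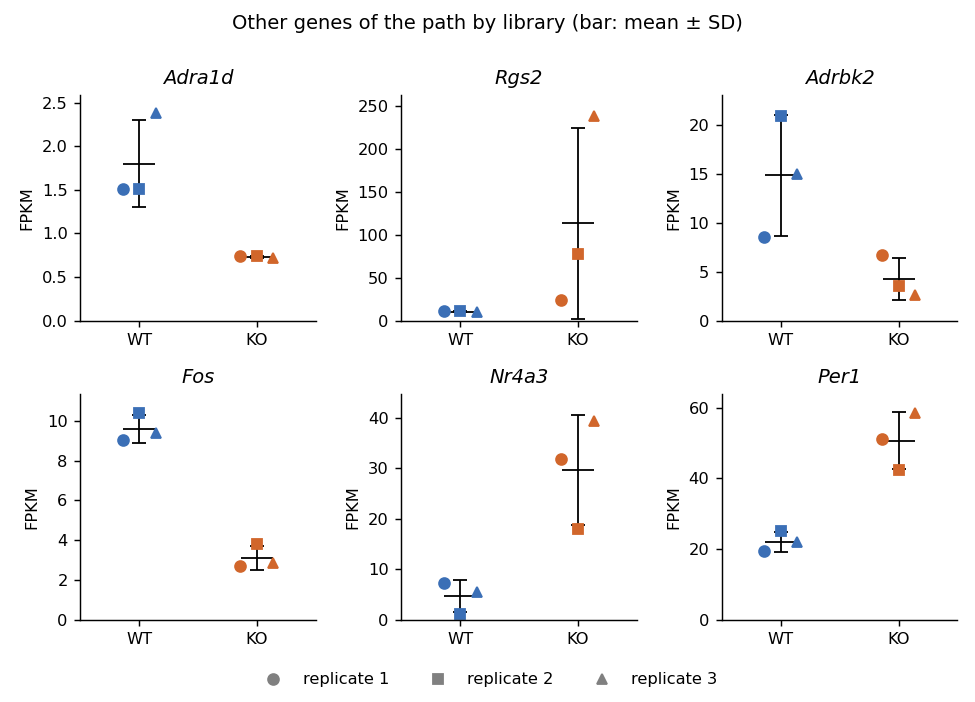
FPKM by library of 6 further genes of the path, drawn as for the members. Rgs2, Nr4a3 and Per1 are higher in KO and Adra1d, Adrbk2 and Fos lower, without overlap between the groups, and KO replicate 3 stands highest in Rgs2 (238 FPKM).

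Of 12 tested transcription factors and effectors of cyclic AMP 0 passed in limma. An unadjusted p under 0.05 was seen in 2, against 19.2% of all tested genes. The smallest p-values were those of Crem (log2 difference 0.54, limma adjusted p 0.158) and Crtc3 (0.40, limma adjusted p 0.183). Th, which encodes the enzyme that begins noradrenaline synthesis, was listed at 0 in all 3 KO libraries and at 0, 0.08 and 0.04 FPKM in WT, and Dbh did not exceed 0.06 FPKM. Ddc, an enzyme of the same route that other cell types also make, was at 0.81 to 1.5 FPKM in WT and 0.30 to 1.43 FPKM in KO. The cell bodies of sympathetic neurons lie outside the depot, so these values say nothing of nerve endings. Among 5 tested genes of synthesis and clearance 0 passed in limma. An unadjusted p under 0.05 was seen in 0 of the 5, against 19.2% of all tested genes. The smallest p-values were those of Maob (−0.30, limma adjusted p 0.438) and Ddc (−0.21, limma adjusted p 0.685).

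Levels were also set against adipocyte RNA, as the log2 value of each member minus the mean log2 value of 9 adipocyte markers. That reference itself differed by −0.28, KO minus WT, and by −0.03 with Plin1, Cidea and Ucp1 left out. Against the 9 markers Adrb1 was lower in KO by a log2 difference of −1.74 and Prkaca by −0.55, and Pde4d was higher by 1.85, each without overlap between the groups (exact permutation p = 0.1, the smallest possible). Against the 6 markers the values were −1.99, −0.80 and 1.60. Gnas stood at −0.01 and Adrb3 at −0.21 against the 9 markers, and at −0.26 and −0.46 against the 6 markers, each with overlap. Markers of macrophages summed to 66.2 to 99.6 FPKM in WT and 78.5 to 121 FPKM in KO, and those of endothelium to 439 to 519 and 437 to 500 FPKM. Of 6 markers in each list 0 passed in limma. An unadjusted p under 0.05 was seen in 1 macrophage and 0 endothelial markers, against 19.2% of all tested genes. The part of these markers in the members' values was not tested.

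Among genes averaging 5 FPKM or more, 4 whose log2 values over the 6 libraries were most like those of Adrb1 were Spryd4, Spry4, Pfdn2 and Slc16a10, with Pearson r of 0.992 to 0.999 among 8373 genes compared. Spry4 read 31.50, 17.79 and 22.18 FPKM in WT replicates 1 to 3, while the KO replicates read 8.14, 6.41 and 5.09 FPKM, highest in WT replicate 1 and lowest in KO replicate 3 as Adrb1 was. Pfdn2 spanned a narrower range, 43.74 to 46.74 FPKM in WT and 39.56 to 40.38 FPKM in KO. The 6 points are the 2 groups compared, and r is a description of these libraries.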

How the data were processed

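The deposited table gives FPKM, per the file headers, in 1 column for each of 3 WT and 3 KO libraries. The values are given to 2 decimals. HISAT2 2.0.4, Bowtie2 2.2.5 and the build mm10 are named, without roles, in the submitters' processing notes. The counting tool, annotation, strand handling and filters are not given in the sources used here, so reads of overlapping antisense genes cannot be told apart. Nothing in the labels says that libraries came from separate animals, so p-values measure the spread between these libraries.

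No count model was used, since FPKM are scaled values. They were transformed as log2(FPKM + 1), which understates the change of low genes. The 13331 genes of 19241 that averaged 0.5 FPKM or more were tested with limma 3.58.1 in R 4.3.3 (eBayes with an intensity trend, no covariates), two-sided, with Benjamini-Hochberg adjustment over all of them and a threshold of 0.05. Tested on simulated data (13331 genes, 200 of them given a log2 shift of 1.5), 175 of these and 9 others passed, and 0 passed without any shift. The shifted genes were drawn only from genes at higher levels. The recovery therefore does not hold for low genes, among them Adrb1 and Adrb3. Shares and ratios were tested with exact permutation tests (scipy 1.17.1), whose smallest p is 0.1. Depth was estimated from low values of single-transcript genes, of which 78.3% to 83.4% lay within 0.2 of a whole read (45.8% to 47.7% with lengths shuffled), using GENCODE transcript lengths; it is an estimate, not a deposited count. Promoters and positions came from RefSeq, GRCm38.p6; Adrb3 and Adra1a had none to print.

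Some genes of the fixed lists, the beta receptor shares and a gene among those most like Adrb1 are not reported here, and the counts leave them out. The members and gene lists were chosen with earlier results of these data known. Named were all members, the genes of each list that passed or else the 2 with the smallest p, and the genes most like Adrb1. Prkacb, Pde4a, Pde4b, Pde4c, the other genes induced by cyclic AMP, Th, Dbh and the receptors below the filter were added after their values were seen. The alternatives were a pseudocount of 0.1, no filter or one at 5 FPKM, quantile, median-of-ratios and common-sum scaling, eBayes without trend or robust, the replicate block and leaving out each library.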

Additional observations from a re-analysis of the deposited data

How the results depend on the processing

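The count of members past the threshold was 1 and became 0 without the filter on low values, 3 with a filter at 5 FPKM (Adrb1, Prkaca and Pde4d, in a fit of 8374 genes) and 2 with median-of-ratios scaling or robust eBayes; leaving out 1 library gave 0 to 2, with 0 without WT replicate 3 or KO replicate 2, 2 without WT replicate 1, and Pde4d in place of Adrb1 without KO replicate 3. The count of other path genes was 3 and became 1 without the filter and 6 with the filter at 5 FPKM; leaving out 1 library gave 1 to 4, with 1 without WT replicate 2 or WT replicate 3 and 2 without KO replicate 2 or KO replicate 3. Over all genes 295 of 13331 passed, against 35 without the filter and 321 of 8374 with the filter at 5 FPKM. Median-of-ratios scaling gave 294, robust eBayes 372 and a common FPKM sum 191, and leaving out 1 library gave 31 to 370. The median log2 difference over all genes stayed within 0.1 of its value under each scaling. The count over all genes rose to 370 without WT replicate 1 and fell without each other library. Some alternatives also change the number of libraries or of tests, and the cause of the shifts was not tested.

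Adrb1 kept its difference of −2.02 without the filter and lost the threshold (limma, adjusted p 0.0802); without 1 library it ran from −2.33 to −1.72. Prkaca passed with the filter at 5 FPKM (−0.83), median-of-ratios scaling (−0.85) and robust eBayes (−0.83), and without 1 library ran from −0.96 to −0.68. Pde4d passed with the filter at 5 FPKM (1.57) and ran from 1.06 to 1.94. Adra1a turned with a common FPKM sum (0.01) and ran from −0.21 to 0.21. Adcy3 ran from −1.07 to 0.23 and Prkar2b from −0.04 to 0.20. Adra2a moved from −0.10 to −0.43 with a pseudocount of 0.1. A filter at 5 FPKM left no value for Adrb3 and Adra2a. Without 1 library the Adra2a share difference ran from −1.14 to 0.117 percentage points and that of Adcy3 from −10.4 to 9.60. Against the 9 adipocyte markers and without 1 library, Adrb3 ran from −0.40 to 0.03, Gnas from −0.13 to 0.09 and Adcy3 from −0.82 to 0.48. With 6 markers these 3 genes stood at −0.46, −0.26 and −0.44, and Adra2a turned to −0.07.

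WT and KO share replicate numbers. Libraries of the same number deviated from the group means with small correlations of 0.068, 0.043 and 0.043, though 6 of 6 libraries matched their own number best. Whether the numbers mark pairs cannot be told from these values, and the main fit left the libraries unpaired. With the replicate block 167 genes passed, among them 1 member, Adrb1 (−2.02), and 4 other path genes.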
